A study of Mus musculus with 6 samples.

Results

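The genes examined here build and supply the primary cilium, the antenna-like projection of most cells of the embryo. Their probes were chosen by gene symbol alone: any symbol made of Ift or Bbs and a number, symbols that begin with Tctn, Kif3, Nphp or Dync2, and the single genes *Kif7*, *Kif17*, *Mks1*, *Cc2d2a*, *Ofd1*, *Cep290*, *Rpgrip1l*, *Wdr19*, *Wdr35*, *Ttc21b* and *Tulp3*. The rule found 92 of the 45281 probes on the array, for 41 of 19057 genes. *Cep290* matched no probe by its symbol and was not analysed here. The rule itself uses no measured value. Several probes may read 1 gene, and the brightest over all pools stands for it unless stated otherwise.

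The study set wildtype embryos against Zic2 iso/iso embryos, in which both copies of *Zic2* carry *iso*, a stop codon within the zinc finger domain of this transcription factor. There were 3 Zic2 iso/iso pools and 3 wildtype pools, each of 8 whole embryos matched for stage between E8.0 and E8.5 (0 to 4 somites). All were on the C3H/HeH strain, both sexes were used, and the allele arose by chemical mutagenesis in C57Bl6/J males that were then crossed to C3H/HeH. Each pool was read on its own Illumina Mouse WG6 v2 array, and the arrays correlated across probes at 0.993 to 0.9955. Neither of the probes for *Zic2* was called (log2 fold changes of 0.12 and −0.37, adjusted p = 0.92 and 0.61 from limma), and a stop codon need not change the RNA they read. In RNA from whole embryos, fewer cells of a type and less RNA per cell cannot be told apart.

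Intraflagellar transport (IFT) carries building blocks along the axoneme of the cilium. The IFT-B complex and heterotrimeric kinesin-2 move cargo to the tip, IFT-A and dynein-2 bring it back, the BBSome sorts membrane proteins, and the transition zone at the base controls entry. In the mouse embryo these genes are known from mutants with faulty left-right patterning and Hedgehog signalling, since cilia at the node move and sense fluid and since Hedgehog signals pass through the primary cilium. Nearly every cell of the embryo can carry such a cilium, while motile cilia at this stage are found on the few cells of the node.

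Factors of the RFX family are known to bind a motif called the X-box in the promoters of ciliary genes. The motif was therefore looked up in the promoters of these genes, in windows from 250 bases before to 50 after each annotated start (RefSeq, GRCm38.p6, sequence as transcribed). Of the 41 genes, 37 had an entry. The X-box letters were taken as GTNNCC, then any 3 bases, then GNAAC. On either strand they stood in the windows of 9 of these 37 genes (24.3%) and in those of 2.49% of the 27025 genes listed. They are printed here with up to 8 bases on each side and the motif in capitals, because they are a sequence that members share and that the choice by symbol did not use. Positions count from the start, with minus for bases before it.
*Ift22* at −63 (chr5:136908079-136908108, plus strand): ctgtcaggGTTTCCTGGGCTACtgcgcagc
*Ift22* at −33 (chr5:136908109-136908138, plus strand): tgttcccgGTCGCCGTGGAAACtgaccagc
*Ift57* at −87 (chr16:49699199-49699228, plus strand): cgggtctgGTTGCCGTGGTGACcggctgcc
*Bbs1* at 2 (chr19:4906605-4906634, minus strand): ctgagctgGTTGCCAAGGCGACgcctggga
*Bbs4* at 24 (chr9:59353464-59353493, minus strand): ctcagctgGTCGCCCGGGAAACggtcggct
*Bbs7* at −121 (chr3:36613489-36613518, minus strand): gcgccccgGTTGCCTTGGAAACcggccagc
*Mks1* at −24 (chr11:87853183-87853212, plus strand): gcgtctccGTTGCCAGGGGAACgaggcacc
*Nphp4* at −231 (chr4:152477903-152477932, plus strand): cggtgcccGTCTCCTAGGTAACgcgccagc
*Tctn1* at 37 (chr5:122264411-122264432, minus strand): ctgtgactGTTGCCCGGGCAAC
*Tctn2* at −62 (chr5:124598679-124598708, plus strand): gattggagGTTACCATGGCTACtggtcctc

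The shorter core GTTGCC, on either strand and overlapping with the longer motif in several of these promoters, stood in 18 of the 37 genes (48.6%) and in 14.1% of all genes. It was present in the windows of *Ift88*, *Kif3a* and *Kif3c*, which are printed with the core in capitals.
*Ift88* at 22 (chr14:57424084-57424105, plus strand): tcgcgcctGGCAACggctgggc
*Kif3a* at −98 (chr11:53567263-53567284, plus strand): ccgcaggcGTTGCCccagtcta
*Kif3c* at −176 (chr12:3364948-3364969, plus strand): gaatggcgGTTGCCgagagaac

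Neither motif was found in the window of *Ift52*, the member with the smallest p in the comparison of genotypes. The 100 bases before its start are shown for contrast with those above.
*Ift52* (chr2:163017253-163017352, plus strand): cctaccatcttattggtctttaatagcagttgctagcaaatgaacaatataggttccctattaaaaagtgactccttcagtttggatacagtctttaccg

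The letters CAGCAGG, a motif of ZIC factors, were in 4 of the 37 genes (10.8%) and in 12% of all genes, on either strand. The 4 genes were *Bbs5*, *Cc2d2a*, *Ift140* and *Nphp4*. The median GC content was 60.0% in the promoters of the members and 56.3% in those of protein-coding genes. A match of letters is a description and not a bound site.

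Values are given as log2 intensities after quantile normalisation between arrays, and differences as Zic2 iso/iso minus wildtype. A background level of 7.47 was taken as the 95th percentile of 1608 probes for olfactory receptors and other sensory families that early embryos are not known to use. Of the 41 genes, 32 were above that level in both genotypes and 9 were below it in both (*Ift46*, *Ift57*, *Ttc21b*, *Wdr19*, *Wdr35*, *Kif7*, *Kif17*, *Ofd1* and *Tctn1*). For these 9 no change could be read. No background was subtracted, which shrinks the difference of a dim gene. Intensities of different probes are not compared with each other.

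No ciliary gene of the rule was called in Zic2 iso/iso embryos. Of the 92 probes, 0 passed an adjusted p of 0.05 from limma, where 0.0442% of all probes (20 of 45281) passed it, and the smallest adjusted p among the members was 0.41. At an unadjusted p under 0.05 there were 5 member probes lower and 1 higher, beside 3.08% and 2.94% of all probes. Counted by genes above the background level, 5 of 32 were lower (*Ift52*, *Ift88*, *Kif3c*, *Bbs2* and *Bbs12*) and 0 higher, where 6.28% of 10037 genes were lower and 4.65% higher. This count of 5 was 0 without normalization between arrays, 2 with each array centred on its median or without wildtype pool 2, 3 without mutant pool 1 or 3, and 6 without wildtype pool 1. The share of all probes lower at that p moved as well. It was 0.203% without normalization between arrays, 1.8% with median centring and 2.63% without wildtype pool 2. Without mutant pool 1 or 3 it was 2.87% or 2.84%, and without wildtype pool 1 it was 3.62%. The differences were small: the largest was 1.23-fold, and in 31 of the 32 genes the 95% interval lay between −0.5 and 0.5. The interval lay there in 9787 of the 10037 genes as well. With 3 arrays a genotype, a difference smaller than these intervals could not be seen.

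**Figure D1:**
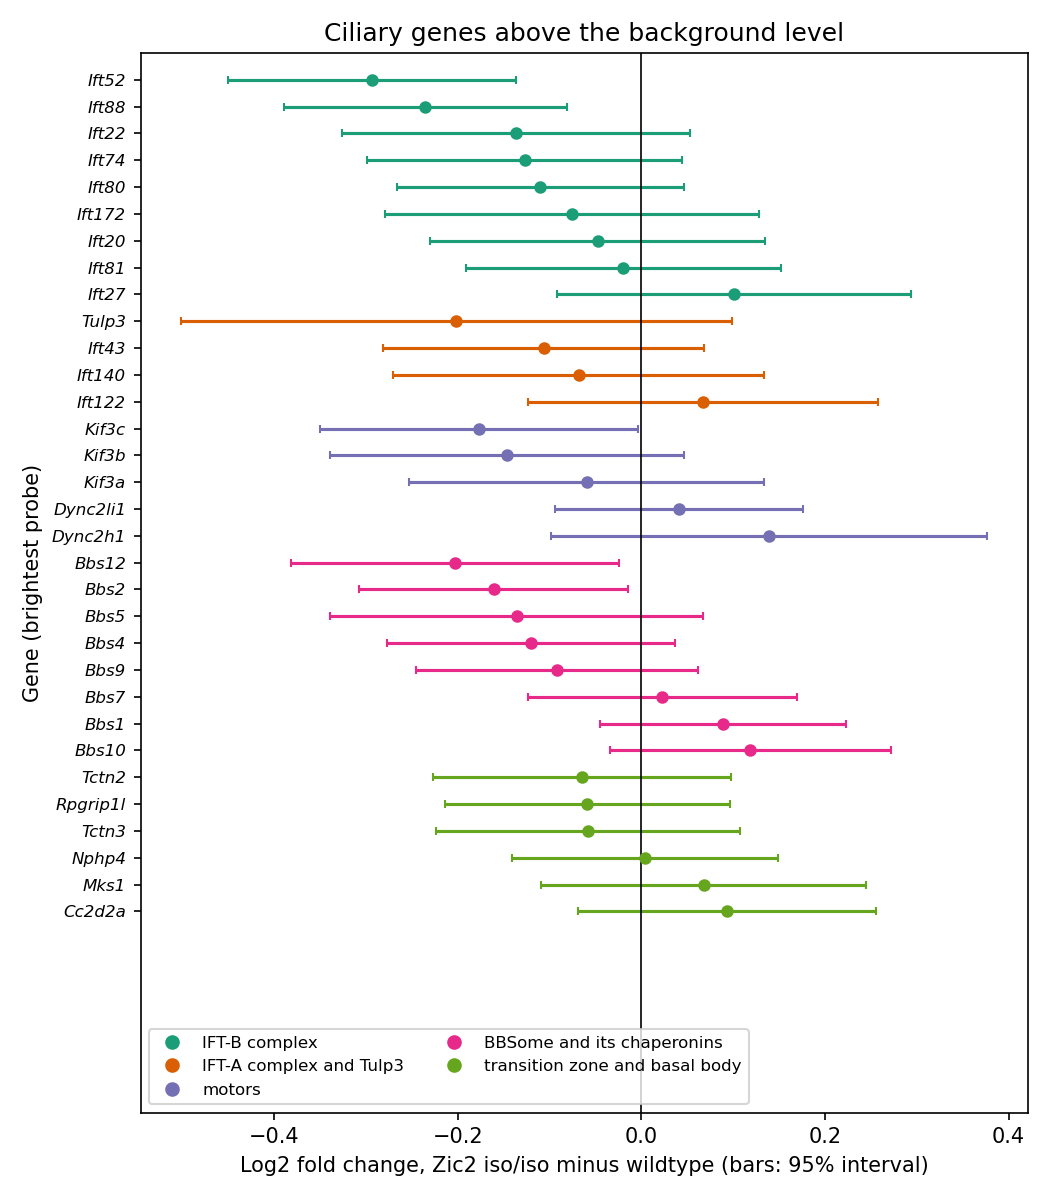
Log2 fold change (horizontal axis, Zic2 iso/iso minus wildtype, with 95% intervals from limma) of the 32 ciliary genes above the background level, ordered by role and named on the vertical axis. The intervals of *Ift52*, *Ift88*, *Kif3c*, *Bbs2* and *Bbs12* lie below 0 and the other 27 include 0.

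*Ift88* and *Ift52*, which encode subunits at the core of the IFT-B complex, had the smallest p among the members. *Ift52* was at 10.37, 10.34 and 10.50 in wildtype pools 1 to 3 and at 10.01, 10.17 and 10.14 in Zic2 iso/iso pools 1 to 3. All mutant pools were below all wildtype pools. The log2 fold change was −0.29 (standard error 0.07, 95% interval −0.45 to −0.14, adjusted p = 0.41 from limma). A second probe of *Ift52*, also above the background level, had a log2 fold change of −0.15 with overlapping pools.

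*Ift88*, mutated in the mouse strain known for polycystic kidneys and short cilia, was at 8.37, 8.31 and 8.42 in wildtype pools and at 8.02, 8.19 and 8.19 in mutant pools. Again no mutant pool reached the lowest wildtype pool. The log2 fold change was −0.24 (standard error 0.07, 95% interval −0.39 to −0.08, adjusted p = 0.62 from limma). Its dimmer probe, just above the background level, had a log2 fold change of −0.02. For *Ift52* and *Ift88*, as for any gene whose pools do not overlap, the exact two-sided permutation p was 0.1, the smallest that 3 pools against 3 allow.

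**Figure D2:**
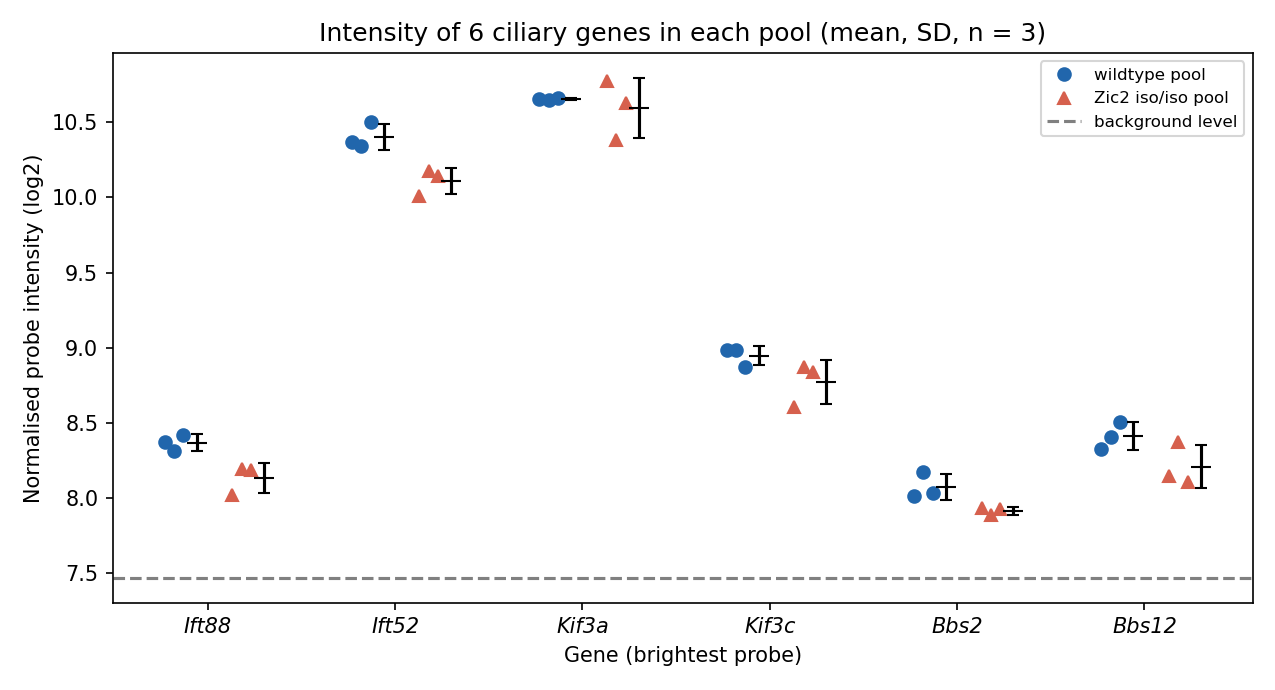
Normalised log2 intensity (vertical axis) of 6 ciliary genes in each wildtype (circles) and Zic2 iso/iso (triangles) pool, with the mean and SD of 3 pools beside the points and the background level of 7.47 as a dashed line. In *Ift88*, *Ift52*, *Kif3c* and *Bbs2* every triangle is lower than every circle. In *Kif3a* and *Bbs12* they overlap.

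Of the IFT-B subunits with an Ift symbol, 11 genes were measured and 9 of them were above the background level. Of these 9, 8 had a log2 fold change below 0 on the brightest probe and 1 above it, with a median of −0.11. Of the 10037 genes above the background level, 52.6% were below 0. Beside *Ift52* and *Ift88*, the values were −0.14 for *Ift22*, a small GTPase-like subunit, −0.13 for *Ift74* and −0.02 for *Ift81*, which together bind tubulin, −0.11 for *Ift80*, −0.08 for *Ift172*, which links the complex to its turn at the tip, −0.05 for *Ift20*, a subunit that is also found at the Golgi, and 0.10 for *Ift27*, a small GTPase needed for the exit of BBSome cargo. Their intervals all included 0. Further probes above the background level gave −0.01 and 0.13 for *Ift74* and −0.08 for *Ift27*. Those of *Ift81* gave −0.09 and −0.09, and those of *Ift172* −0.01 and −0.04. *Ift20* was read by 3 probes. On the middle one the wildtype pools were at 9.85, 10.002 and 10.04 and the mutant pools at 10.05, 10.20 and 10.14, so that all mutant pools were above. This probe gave 0.16 (adjusted p = 0.82 from limma), the only member probe higher at an unadjusted p under 0.05, while the brightest gave −0.05. The dimmest gave 0.08.

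Of the IFT-A complex and its adaptor *Tulp3*, which brings membrane receptors into the cilium, 4 of 7 genes were above the background level. *Ift122* had a log2 fold change of 0.07, *Ift140* of −0.07, *Ift43* of −0.11 and *Tulp3* of −0.20. None of the 4 was called, and the pools of each overlapped on the brightest probe. On a dimmer probe of *Ift140* all mutant pools were above, by a log2 fold change of 0.04 (adjusted p = 0.98 from limma). It was at 7.61, 7.62 and 7.61 in wildtype and at 7.63, 7.70 and 7.63 in mutant pools. *Tulp3* had the widest interval of all members (−0.50 to 0.10), as its wildtype pools ran from 8.01 over 8.23 to 8.68 and its mutant pools from 7.98 over 8.05 to 8.29.

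Among the motors, the kinesin-2 subunit *Kif3a*, whose loss removes cilia from the node, showed no difference beyond the spread of the pools. It was at 10.65, 10.65 and 10.66 in wildtype pools and at 10.78, 10.38 and 10.63 in mutant pools. The wildtype pools lay within the range of the mutant pools, and the log2 fold change was −0.06 (95% interval −0.25 to 0.13, adjusted p = 0.98 from limma). Its second probe above the background level gave 0.04. *Kif3b*, the usual partner of *Kif3a*, had a log2 fold change of −0.15 (95% interval −0.34 to 0.05).

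*Kif3c*, a further partner known best from neurons, was at 8.98, 8.99 and 8.87 in wildtype and at 8.60, 8.87 and 8.84 in mutant pools. The highest mutant pool was just below the lowest wildtype pool (8.872 and 8.875). The log2 fold change was −0.18 (adjusted p = 0.82 from limma, standard error 0.08). A second probe, above the background level in the mutant pools only, gave 0.14. The dynein-2 heavy chain *Dync2h1*, the motor of the return journey, was at 9.33, 9.04 and 8.79 in wildtype and at 9.17, 9.13 and 9.27 in mutant pools. The mutant pools lay within the range of the wildtype pools, and the log2 fold change of 0.14 (95% interval −0.10 to 0.38) was 0.28 without wildtype pool 1 and 0.0071 without wildtype pool 3. Its light intermediate chain *Dync2li1* gave 0.04. *Dync2h1* had 7 probes, of which 2 were above the background level, with values of 0.14 and 0.07. *Kif7*, a regulator of Gli factors at the cilium tip, and *Kif17*, the homodimeric kinesin-2, could not be read.

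The 8 measured genes with a Bbs symbol, which encode subunits of the BBSome and its chaperonins, were above the background level. Their log2 fold changes were below 0 in 5 (52.6% of the 10037 genes) and above it in 3, with a median of −0.11. *Bbs2*, a subunit of the BBSome core, was at 8.01, 8.18 and 8.04 in wildtype and 7.93, 7.89 and 7.92 in mutant pools. The groups did not overlap, and the log2 fold change was −0.16 (adjusted p = 0.80 from limma, standard error 0.07). *Bbs12*, a chaperonin-like protein that helps to assemble the complex, was at 8.33, 8.40 and 8.51 in wildtype and 8.15, 8.38 and 8.11 in mutant pools. Mutant pool 2 lay above the lowest wildtype pool, and the log2 fold change was −0.20 (standard error 0.08, adjusted p = 0.79 from limma). Its second probe above the background level went the other way, at 0.09.

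*Bbs1*, a gene often mutated in Bardet-Biedl syndrome, was just above the background level, at 7.50, 7.47 and 7.49 in wildtype and 7.55, 7.61 and 7.55 in mutant pools. All mutant pools were above, by a log2 fold change of 0.09 (adjusted p = 0.93 from limma). The remaining values were −0.14 for *Bbs5*, −0.12 for *Bbs4*, −0.09 for *Bbs9* and 0.02 for *Bbs7*, all subunits of the complex, and 0.12 for the chaperonin-like *Bbs10*. The groups overlapped in each of these 5 genes. Over the 32 members above the background level, on their brightest probes, all mutant pools were below in 4 genes and above in 1. Of the 10037 genes, 6.92% and 4.72% did so. Over all 52 member probes above the background level, the mutant pools were below in 4 and above in 4. Among all 17546 such probes of the array the counts were 1078 and 908. On the 20 member probes other than the brightest they were 0 and 3.

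Of the 8 transition zone and basal body genes that the rule names and the array reads, 6 were above the background level, with log2 fold changes between −0.06 and 0.09, of which 3 were below 0 and 3 above it. These were *Cc2d2a* at 0.09 and *Mks1* at 0.07, parts of the complex affected in Meckel syndrome, the tectonic genes *Tctn2* at −0.06 and *Tctn3* at −0.06, *Rpgrip1l*, a scaffold of the zone, at −0.06, and *Nphp4*, affected in nephronophthisis, at 0.00. Their intervals all included 0 and lay between −0.23 and 0.26. The groups overlapped in all 6 on the brightest probe. On the second probe of *Tctn2*, also above the background level, all mutant pools were above. It was at 7.52, 7.62 and 7.60 in wildtype and at 7.72, 7.75 and 7.64 in mutant pools. That probe gave a log2 fold change of 0.12 (adjusted p = 0.89 from limma).

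Probes of 1 gene did not always give the same direction. In 15 genes more than 1 probe was above the background level, and in 8 of them all such probes had the same sign. The largest log2 fold change and the smallest one of a gene's probes lay 0.11 apart (median over the 15 genes) and at most 0.29 apart, in *Bbs12*. Across the 20 further probes above the background level, 10 had a log2 fold change below 0 and 10 above it, with a median of 0.01. No lean to lower values was seen on these dimmer probes.

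**Figure D3:**
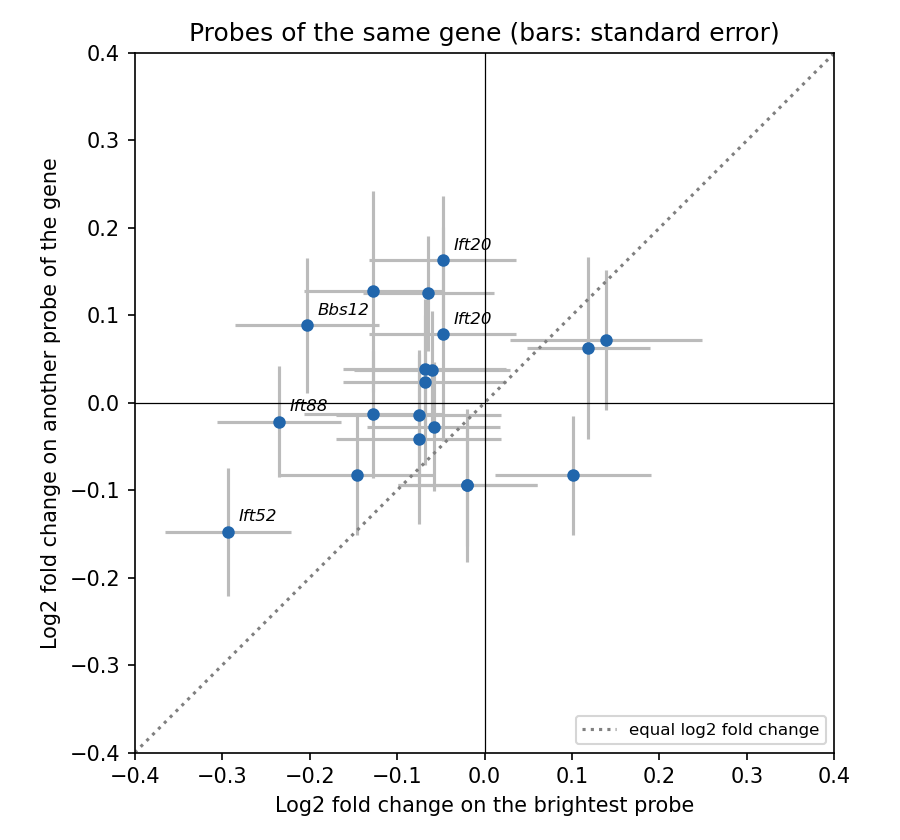
Log2 fold change of further probes (vertical axis) against that of the brightest probe of the same gene (horizontal axis), for the 15 ciliary genes with more than 1 probe above the background level. Bars are standard errors and the dotted line marks equal values. Points in the upper left, such as *Bbs12* and *Ift20*, are genes whose probes differ in sign.

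Across the 32 genes, the log2 fold change was below 0 in 22 (52.6% of the 10037 genes) and above it in 10, with a median of −0.07 beside −0.01 over those genes. The mean log2 level of the 32 was 9.11, 9.14 and 9.13 in wildtype pools and 9.03, 9.07 and 9.09 in mutant pools, lower in each mutant pool by a small amount. Without normalization between arrays 14 were below 0 and 18 above it, with a median of 0.01, beside a median of 0.08 over all probes above the background level. With each array centred on its median the count was 21 below 0, with a median of −0.04 beside 0.03. The difference of the members from the other genes was not tested.

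The 7 genes with X-box letters that were above the background level had log2 fold changes of −0.14 to 0.09, with a median of 0.00 and 3 of them below 0. Those of the 21 without the letters ran from −0.29 to 0.14, with a median of −0.09 and 17 below 0. The longer motif was thus in none of the windows of *Ift52*, *Ift88*, *Kif3c*, *Bbs2* and *Bbs12*. This is a description of 28 genes, with no test.

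Ciliary genes outside the rule were set beside the members. Of 9 further subunits of dynein-2 and kinesin-2, all above the background level, 1 fell, 0 rose and 8 did not pass the test. *Dynlrb2*, a light chain of dynein that the study names among its changed genes, was at 8.14, 8.25 and 8.22 in wildtype and at 7.54, 7.57 and 7.44 in mutant pools. It fell by 0.69 on the log2 scale (adjusted p = 0.0019 from limma, standard error 0.07), with all mutant pools below and mutant pool 3 under the background level. Its paralogue *Dynlrb1* gave 0.05 (95% interval −0.10 to 0.20), the light chain *Dynll2* 0.31 (adjusted p = 0.62 from limma, overlapping pools) and *Kifap3*, which joins *Kif3a* and *Kif3b* to their cargo, 0.08. The interval of *Dynlrb2* (−0.83 to −0.54) lay below that of each member gene above the background level, the lowest bound of which was −0.50.

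Of 20 further genes of the transition zone and basal body, 17 above the background level, 0 passed the test. The largest fall in value was that of *B9d1*, a partner of *Mks1*, at −0.24 (adjusted p = 0.66 from limma), and the largest rise in value that of 2700049A03Rik, known as *Talpid3*, at 0.24 (adjusted p = 0.62 from limma). In each of these genes the genotypes were fully separated. Of 12 genes of IFT and the BBSome that carry other symbols, 6 were above the background level and 0 passed. All 6 had a log2 fold change below 0 (52.6% of the 10037 genes), with a median of −0.08. The largest value there was −0.16, for *Rabl2*, a GTPase that binds IFT-B. *Ttc30a1*, an IFT-B subunit, was above the background level in the mutant pools only (7.32 and 7.53, adjusted p = 0.66 from limma).

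Genes of the ciliary membrane and of Hedgehog signalling, which depends on IFT, showed 0 calls among 17, 13 of them above the background level, with a median of 0.03. *Evc*, which acts at the base of the cilium, had the smallest p, at −0.18 (adjusted p = 0.79 from limma, all mutant pools below). Of 12 genes listed as RFX factors or other regulators of ciliary genes, 7 were above the background level in both genotypes and 0 passed. *Rfx4* was at −0.20, *Rfx1* at −0.15, *Rfx2* at −0.13 and *E2f4* at −0.07. *Foxj1*, which drives motile cilia, was at −0.02, *Noto* at 0.00 and *Myb* at 0.05. *Noto* (means of 7.48 in wildtype and 7.48 in mutant pools) and *Myb* (7.51 and 7.56) were barely above the background level, which limits their reading. *Rfx3*, above the background level in the mutant pools only, gave 0.03. *Rfx5* gave 0.18, but its means of 7.21 and 7.39 were under the background level.

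**Figure D4:**
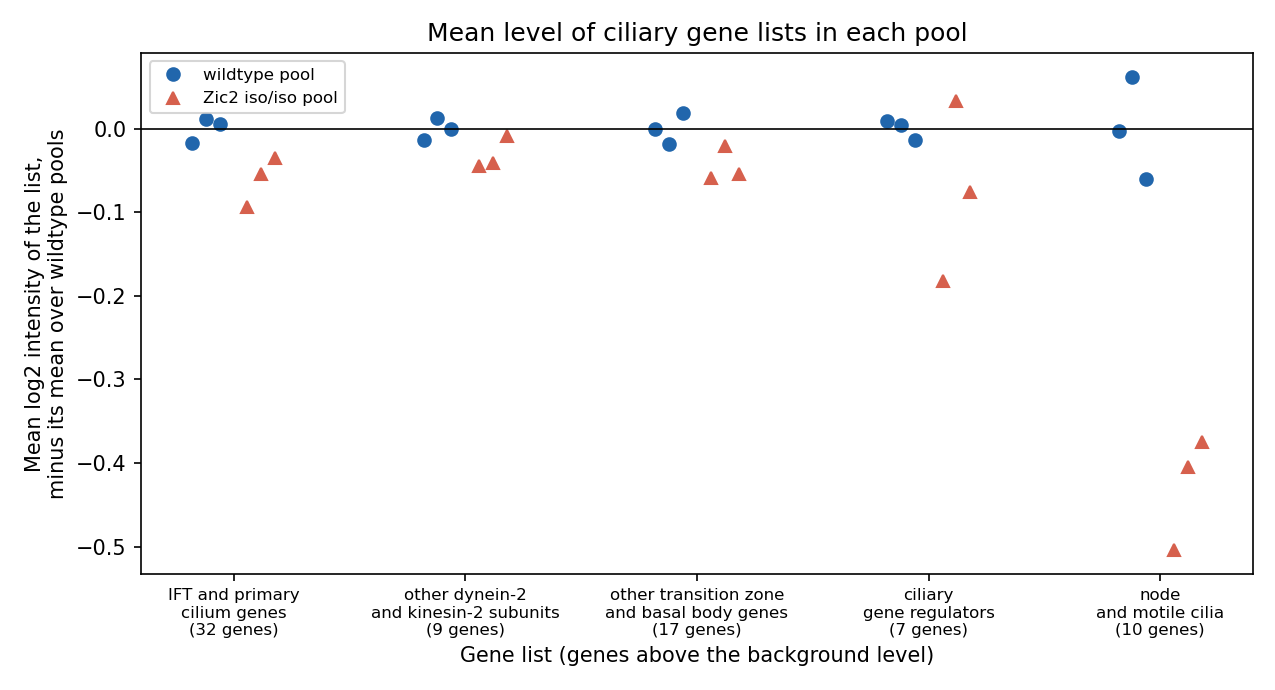
Mean log2 intensity in each pool (vertical axis) of the lists named on the horizontal axis, which are not all the lists of the text. It is drawn as the difference from the list's mean over the wildtype pools, for wildtype (circles) and Zic2 iso/iso (triangles) pools. The intraflagellar transport and primary cilium genes lie within 0.1 of the wildtype mean. The node and motile cilia list, which holds genes the study names as changed, lies lower in all mutant pools. The largest falls in that list are those of *Nodal*, *Shh*, *Fam183b* and *Dynlrb2*, and not all of its genes fell.

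The levels of other lists in the same pools are given beside those of the ciliary genes. For 10 genes of the node and motile cilia above the background level, the mean log2 level was 8.20 to 8.32 in mutant and 8.64 to 8.76 in wildtype pools. Of 17 measured genes 4 were called, *Dynlrb2* (−0.69), *Fam183b* (−0.85), *Nodal* (−1.07) and *Shh* (−0.86). All 4 were named by the study on these samples, so that the count is no independent evidence. The others above the background level were *Rsph1* at −0.45, *Pifo* at −0.20, *Tekt1* at −0.10, *Dnah11* at −0.05, *Foxj1* at −0.02 and *Noto* at 0.00. The fall of the list was thus not shared by all its genes. For 6 heart genes the mean log2 level was 9.35 to 10.07 in mutant and 10.13 to 10.28 in wildtype pools. Mutant pool 3 was at 9.35 and the other mutant pools at 9.99 and 10.07. For 6 somite genes it was 8.61 to 8.74 and 8.69 to 8.91. There were 0 calls in either list. At an unadjusted p under 0.05, 4 of the 6 heart and 2 of the 6 somite genes were lower, beside 6.28% of the 10037 genes above the background level. The summed intensity of the heart list was 6464 to 12648 in mutant and 13013 to 16270 in wildtype pools, and that of the somite list 2959 to 3368 and 3407 to 4144. The mean log2 level of the 32 ciliary genes did not overlap between genotypes, at 9.03 to 9.09 and 9.11 to 9.14, while their summed intensity did, at 24315 to 25032 and 24956 to 26809. The 17 further transition zone and basal body genes (9.19 to 9.22 and 9.23 to 9.26) and 5 genes of decidua and trophoblast (8.64 to 8.75 and 8.76 to 8.84) were also lower in all mutant pools in mean log2 level. The summed intensity of the former did not overlap (13932 to 14299 in mutant and 14452 to 15050 in wildtype pools). That of the latter did (3108 to 3728 and 3270 to 3932). In mean log2 level the genotypes overlapped for 6 IFT and BBSome genes under other symbols (8.96 to 9.06 and 9.02 to 9.15). They overlapped too for 13 ciliary membrane and Hedgehog genes (10.06 to 10.09 and 10.015 to 10.10) and 7 ciliary regulators (8.45 to 8.66 and 8.615 to 8.64). The same held for 9 dynein-2 and kinesin-2 subunits, 10 yolk sac genes and 5 neural plate genes. For 5 genes of primitive blood the mean was 7.75 to 9.36 in mutant pools, lowest in mutant pool 3, and 8.75 to 9.03 in wildtype pools. The part that these lists had in the values of the ciliary genes was not tested.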

How the data were processed

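The authors deposited linear probe intensities from Illumina Mouse WG6 v2 arrays, 1 column for each of 6 pools and 45281 probes. The lowest value of a pool was 103.8 to 122.4 and the medians 153.9 to 187.1, so that neither background subtraction nor normalisation between arrays is in them, and they do not hold the variance stabilised values that the methods describe. The scanner software is not given in the sources used here. After conversion to log2 and quantile normalisation, Zic2 iso/iso and wildtype pools were compared at every probe in limma 3.58.1 (lmFit, eBayes, no covariates; R 4.3.3), with Benjamini-Hochberg adjustment over all probes and a threshold of 0.05. Gene symbols came from the platform's annotation, where 34885 probes carry 1 symbol, 18 several and 10378 none, with older names matched through RefSeq (GRCm38.p6). No filter on dim probes was applied in the fit. The number of arrays limits the precision.

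The rule for the genes and the other lists, written from general knowledge, were chosen with earlier results of these data known. Every member is named. Pool values are given for *Ift88*, *Kif3a*, members with an unadjusted p under 0.05 and members whose pools do not overlap on a probe above the background level. Those of *Tulp3*, *Dync2h1* and *Dynlrb2* were added after they were seen. So were those of the middle probe of *Ift20*, which also meets the last of these conditions. Marker lists for decidua and trophoblast, yolk sac endoderm, primitive blood, neural plate, heart and somites had 0 calls each. The replicate numbers of the labels did not pair the pools (correlation of their deviations −0.08, −0.01 and −0.07). The paper states that heterozygotes were crossed and that littermates served as controls, so mutant and wildtype pools may share litters. Nothing in the labels ties pools to separate litters, so p-values measure the spread between these pools. The scripts were first run on simulated data with known changes. Alternatives were other normalisations, background correction, a filter on dim probes, other variance priors, the replicate block, each pool left out and probes averaged by gene.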

Additional observations from a re-analysis of the deposited data

How the results depend on the processing

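No member probe was called in any of 14 alternative fits, and no member gene when its probes were averaged. The smallest adjusted p among the members ran from 0.31 to 1 over the 14 fits. Over all probes, 20 were called, 4 without normalization between arrays, 11 with median centring, 31 with an intensity trend and 17 with the replicate block, and 14 to 29 when 1 pool was left out. No paired effect was read from the block, under which the smallest adjusted p of a member was 0.55. The log2 fold changes of *Ift52* (−0.33 to −0.21) and *Ift88* (−0.31 to −0.13) stayed below 0 in all 15 alternatives, as did those of *Bbs2* (−0.22 to −0.08), *Bbs12* (−0.29 to −0.01) and *Kif3c* (−0.23 to −0.0004). For *Bbs12* and *Kif3c* the value nearest 0 came from the mean of the gene's probes. The count of 5 genes lower at an unadjusted p under 0.05 was 0 without normalization between arrays, 2 with median centring or without wildtype replicate 2, 4 with the rewritten variance stabilising normalisation or without Zic2 iso/iso replicate 2, 6 without wildtype replicate 1, and 3 with normexp correction, the dim filter, the trend, the block or without Zic2 iso/iso replicate 1 or 3. 1 gene was higher without Zic2 iso/iso replicate 1 or 2 or without wildtype replicate 1, and 0 otherwise. Over all probes, the share lower at an unadjusted p under 0.05 was 3.08% in the main fit. Over the 14 fits it ran from 0.203%, without normalization between arrays, to 3.62%, without wildtype replicate 1. The cause was not tested. Dim probes limit the reading of 9 genes.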
